A study of Rattus norvegicus with 18 samples.

Results

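The nuclear-encoded subunits of the respiratory chain were followed in neonatal rat ventricular cardiomyocytes treated with phenylephrine and infected with an adenovirus. The genes were chosen by symbol: Nduf names with a subunit number for complex I, Sdha to Sdhd for complex II, Uqcr names for complex III, Cox4 to Cox8 names for complex IV and Atp5 names for complex V. This gave 84 of the 19880 genes of the expression table, with 38 in complex I, 4 in complex II, 8 in complex III, 18 in complex IV and 16 in complex V. RNA was sequenced from 18 libraries in 3 experiments, each with 3 libraries of cells given a virus named for a short open reading frame (sORF6, sORF7 or sORF8) and 3 of cells given that experiment's own control virus. The cells of all 6 groups came from the heart ventricles of 2-day-old Sprague-Dawley rats, were pre-plated for 1 h to remove other cells, and received phenylephrine, an alpha-adrenergic agonist that makes cardiomyocytes grow, at 20 µM for 24 h. No group without phenylephrine or without virus was analysed here. What the reading frames encode is not in the labels. Nor do the labels tie the 3 libraries of each group to separate cultures, and a p-value therefore measures library-to-library spread that could be technical. Expression is given below as normalised CPM (counts scaled by library size) within a gene, and as the deposited FPKM (fragments scaled by transcript length and library size) between genes.

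The respiratory chain moves electrons from NADH, through complex I, and from succinate, through complex II, to ubiquinone, then through complex III and cytochrome c to complex IV, which reduces oxygen. Complexes I, III and IV pump protons across the inner mitochondrial membrane, and complex V, the ATP synthase, uses the gradient to make ATP. Complexes I, III, IV and V include a few proteins encoded in mitochondrial DNA, while their remaining subunits and all of complex II are encoded in the nucleus and imported. The working heart depends on this pathway for nearly all of its ATP, and it uses muscle isoforms of some complex IV subunits.

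Library totals lay between 15697177 and 17658137 counts, and the 6 libraries of the sORF8 experiment were the smallest, at most 16283938 counts against at least 17299568 in the other 12. The 10 defining cardiomyocyte genes looked at, among them Tnnt2, Actc1 and Myh6, summed to between 21635 and 32405 FPKM in the 18 libraries, and none was at 0. Markers of fibroblasts summed to between 1495 and 1782 FPKM. The adipocyte markers Plin1, Cidec and Adipoq were at or near 0. Members varied most within the control groups of the sORF6 and sORF7 experiments. The median coefficient of variation over 81 members was 9.97% in sORF6 control cells and 6.53% in sORF7 control cells. It was between 3.19% and 4.38% in the other 4 groups. All genes of a similar level also varied most in those control groups, at 5.14% and 5.10%, against 3.43% to 3.82% in the other 4. In each of those control groups 1 library stood apart. Relative to each gene's mean over all 18 libraries, the members' median log2 level was 0.07, 0.25 and 0.01 in the 3 sORF6 control libraries, with replicate 2 the high one, and 0.10, 0.21 and 0.21 in the 3 sORF7 control libraries, with replicate 1 the low one. The counts of members called for each virus and for the sORF8 control contrast are given with and without the pair. Shares, gene lists and values of single members include it.

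**Figure D1:**
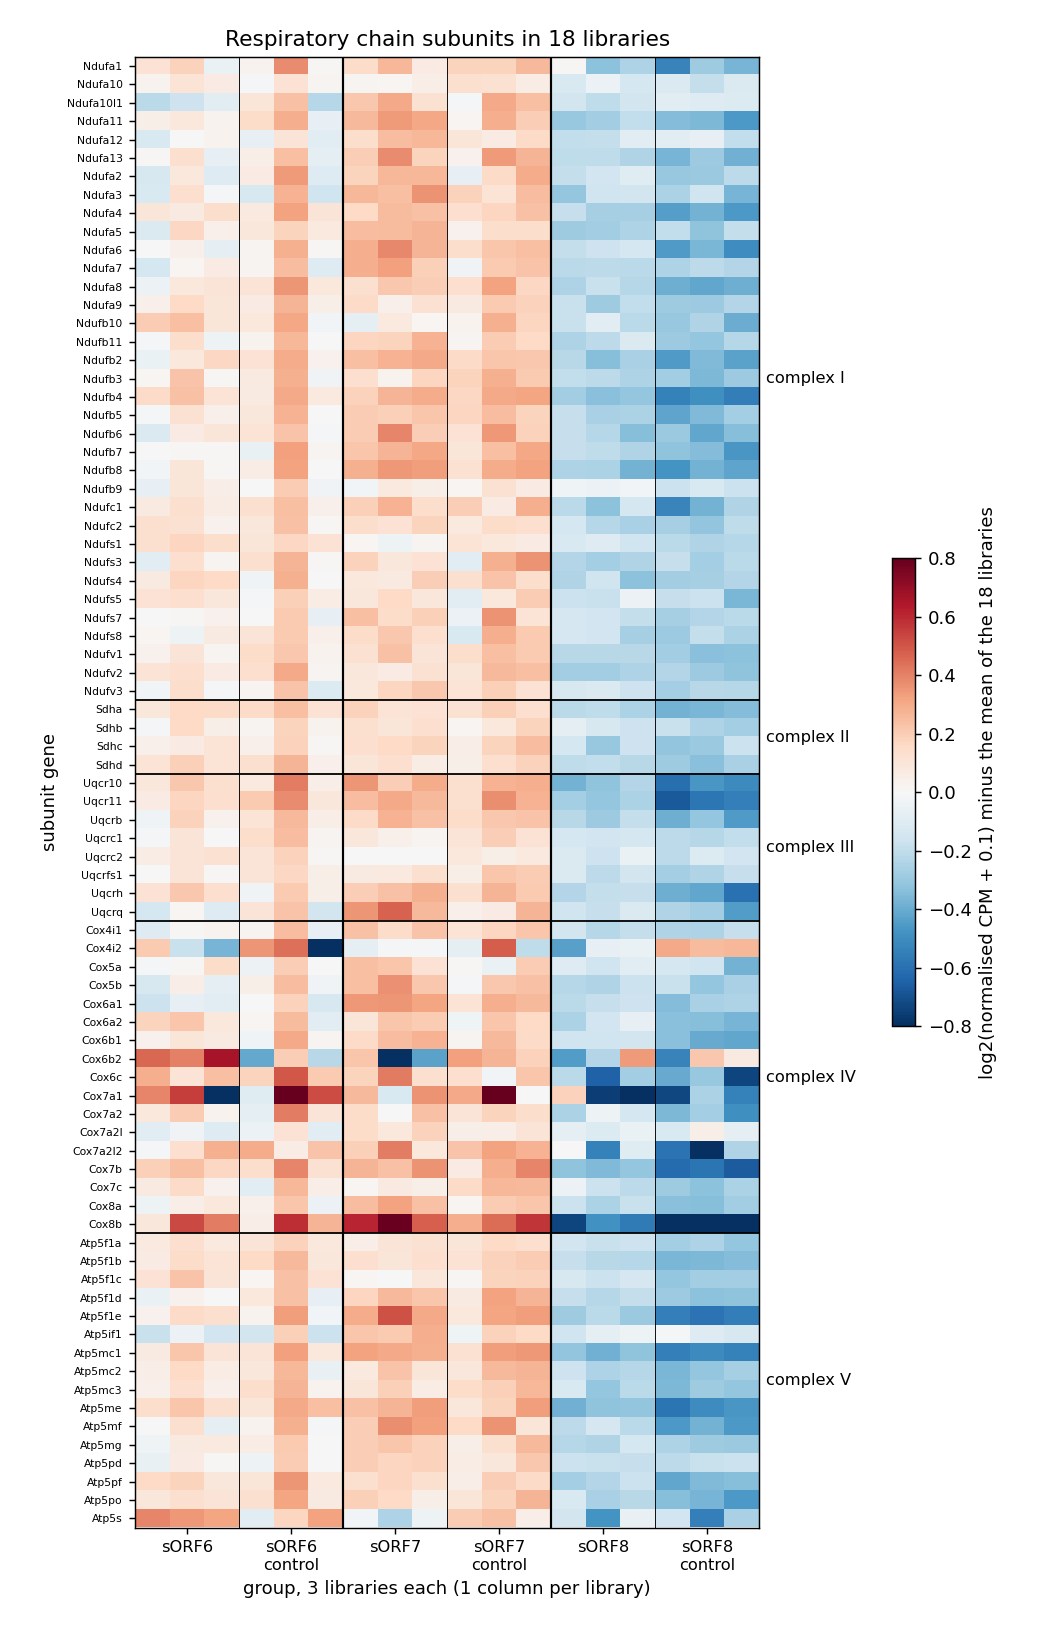
Heat map of 80 respiratory chain subunits (rows, grouped by complex) in the 18 libraries (columns, each sORF group left of its control), coloured by log2(CPM + 0.1) minus the gene's mean over the libraries. The 6 columns of the sORF8 experiment are low in nearly every row, and the sORF8 control columns are the lowest in most rows.

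The 84 genes took 1.80% ± 0.052 of library counts in sORF6 cells and 1.87% ± 0.15 in sORF6 control cells (SD, n = 3 each). The share was 1.96% ± 0.011 in sORF7 cells and 1.92% ± 0.080 in sORF7 control cells. It was lower in the third experiment, at 1.54% ± 0.016 in sORF8 cells and 1.43% ± 0.0089 in sORF8 control cells. The 3 sORF8 libraries lay above the 3 of their control, and both groups lay below the other 4. Within the chain, complex V held the largest share, 0.603% of counts in sORF8 cells and 0.556% in their control, and complex II the smallest, 0.0893% in sORF8 cells and 0.0838% in their control.

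Levels per length differed widely between subunits of the same complex. In FPKM averaged over the 18 libraries, the highest member was Cox6a2, the muscle isoform of a complex IV subunit, at 1817, which ranked 13 among all genes. Next came Atp5f1b, the catalytic beta subunit of ATP synthase, at 1468 FPKM and rank 18, although the intact enzyme holds as many alpha as beta subunits and Atp5f1a, the alpha subunit, was at 789.8 FPKM. In complex I the highest was the accessory subunit Ndufb9 at 437 FPKM. Ndufv1, which binds FMN and takes electrons from NADH, was at 173 FPKM and the iron-sulphur subunit Ndufs1 at 138 FPKM. The 4 subunits of complex II lay close together, between 163 FPKM for the membrane anchor Sdhd and 226 FPKM for the anchor Sdhc. In complex III the Rieske iron-sulphur protein Uqcrfs1 was at 265 FPKM, and the range ran between 129 FPKM for Uqcrb and 344 FPKM for Uqcrq, both small accessory subunits. Ndufa4, which the rule placed with complex I by its name, is known as a subunit of complex IV and was at 318 FPKM.

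Too few counts to test were found for 3 members. Ndufa4l2, a hypoxia-induced paralogue of Ndufa4, was at 0.224 FPKM, and the testis isoform Cox8c at 0.00611 FPKM. The row named Ndufs6 held 2.02 estimated counts in all libraries together. RefSeq lists its gene ID as the pseudogene Ndufs6-ps1 and gives the symbol Ndufs6 to LOC679739, which lay outside the rule and had a mean of 413 counts. The counts of LOC679739 equalled those of LOC100912599 in 18 of 18 libraries, so counts of this complex I subunit could not be told apart between the 2 rows. The row named Cox7a1, the heart isoform of subunit 7a, is likewise not the gene RefSeq calls Cox7a1. It was at 0.614 FPKM, and the RefSeq gene, LOC687508 in the table, was at 2.07 FPKM. Of the 81 members tested, 14 have a like-named copy elsewhere in the table with which reads could be shared, and 67 do not. Mean counts of the tested members ran between 13.0 for Cox7a1 and 44057 for Atp5f1b, with a median of 2439, and 76 had at least 500.

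Complex IV has tissue isoforms, and the muscle isoform led in 1 pair and not in the others. Cox6a2 made up 77.2% ± 1.07 of the summed Cox6a1 and Cox6a2 FPKM in sORF6 cells, 74.3% ± 0.373 in sORF6 control cells, 71.6% ± 1.03 in sORF7 cells and 72.4% ± 0.529 in sORF7 control cells (SD, n = 3 each). In the third experiment it made up 74.2% ± 0.922 in sORF8 cells and 72.9% ± 0.939 in sORF8 control cells. This share moved by only a few percentage points between groups. Cox8b, the muscle isoform of subunit 8 in rodents, was the minor partner of Cox8a. Its share of the summed Cox8a and Cox8b FPKM was 6.56, 8.12 and 7.34% in the 3 sORF8 libraries, against 6.30, 6.14 and 4.59% in the 3 sORF8 control libraries, and the groups did not overlap. The mean share was 11.5% ± 1.23 in sORF6 cells, 10.9% ± 1.26 in sORF6 control cells, 11.8% ± 0.809 in sORF7 cells and 11.3% ± 0.384 in sORF7 control cells. The Cox8b share was thus lower in both groups of the sORF8 experiment than in the other 4. Cox4i2, an isoform of subunit 4 known for its induction by low oxygen in lung, stayed under 0.439% of the summed Cox4i1 and Cox4i2 FPKM in every library but that of sORF8 control replicate 1, where it had that value.

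**Figure D2:**
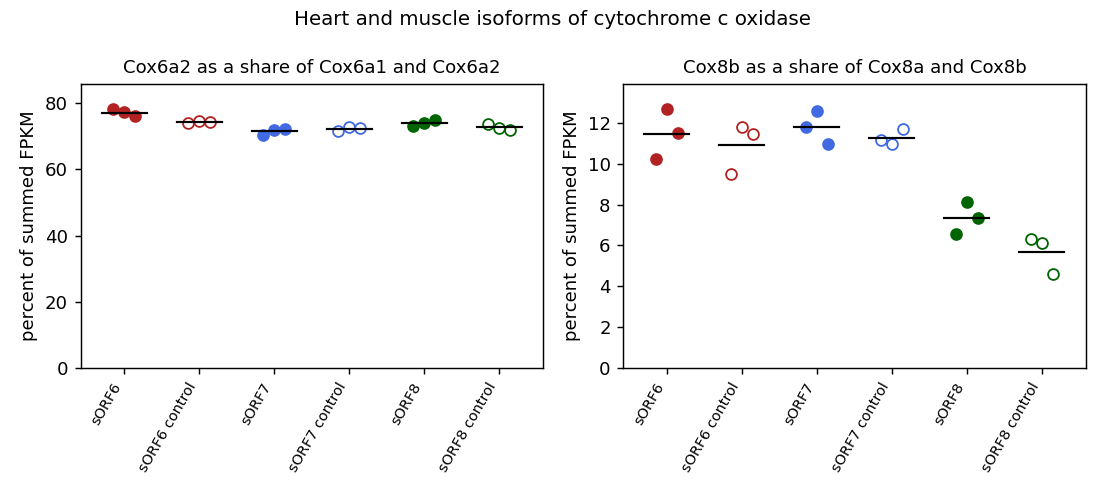
Share of a second isoform in the summed FPKM of its pair (percent, linear axes) for Cox6a2 with Cox6a1 and Cox8b with Cox8a, 1 point per library and a bar at the mean, each sORF group left of its control. The Cox8b share is lowest in sORF8 control cells, at a mean of 5.68%, and next lowest in sORF8 cells, at 7.34%.

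In the sORF8 experiment, subunits of all 5 complexes were among those that rose with the sORF8 virus: Uqcr11, Uqcrh, Ndufa6, Ndufb4, Sdha, Cox7b and Atp5f1b. Of 81 members tested, 7 rose and 0 fell at an adjusted p under 0.05 (edgeR's quasi-likelihood test with Benjamini-Hochberg adjustment over 14870 genes), where 2.03% of all genes were called higher and 1.72% lower. At an unadjusted p under 0.05 by edgeR, 30 members were higher and 0 lower, where 1229 of 14870 genes were higher and 1239 lower. DESeq2 and limma also called 0 members lower. The median log2 fold change of the 81 was 0.11, a 1.08-fold difference, beside 0.00 over all genes tested, and 73 of the 81 were above 0. In 48 members, 59.3%, the 3 sORF8 libraries all lay above the 3 control libraries, where 11.6% of all genes did. The median was 0.10 for complex I, 0.10 for complex II, 0.16 for complex III, 0.11 for complex IV and 0.13 for complex V. The count of 7 rested on every library of the experiment: it was 1 to 3 without any 1 of the sORF8 libraries or any 1 of the sORF8 control libraries. It was 18 without sORF6 control replicate 2 and 22 without both libraries that stood apart. Those libraries are in the model's shared estimate of spread. Calls over all genes moved too: 302 were higher with every library, 406 without sORF6 control replicate 2 and 539 without both libraries that stood apart. Without any 1 library of the sORF8 experiment, 154 to 208 of all genes were higher. The cause of these shifts was not tested. In the authors' deposited table, 53 of the 82 members with a value were higher and 0 lower at a q-value under 0.05, among 9.44% higher and 13.2% lower of all genes.

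Complex III held 2 of the 7. Uqcr11, a small accessory subunit (gene 690848, chromosome 7, 12171146 to 12175838, on Rnor_6.0), had 85.4, 83.1 and 86.6 CPM in the sORF8 libraries, against 64.8, 69.0 and 70.7 CPM in the sORF8 control libraries. The groups did not overlap, and the log2 fold change was 0.32 ± 0.07 (SE), with an adjusted p of 0.010 by edgeR. Uqcrh, the acidic hinge protein at the cytochrome c docking site (gene 366448, chromosome 5, 134919040 to 134927235), had 119, 123 and 123 CPM in sORF8 libraries and 107, 105 and 92.8 CPM in control libraries. Every sORF8 library was again above every control library, with a log2 fold change of 0.26 ± 0.06 and an adjusted p of 0.018 by edgeR. The core proteins Uqcrc1 and Uqcrc2, which did not pass the test, had log2 fold changes of 0.07 ± 0.05 and 0.04 ± 0.04, and Uqcrfs1 of 0.08 ± 0.05.

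Complex I gave 2 more, both accessory. Ndufa6, an accessory subunit that binds the mitochondrial acyl carrier protein (gene 315167, chromosome 7, 123582826 to 123586919), had 54.2, 55.2 and 56.3 CPM in sORF8 libraries, against 45.3, 48.1 and 43.8 CPM in control libraries. Its groups did not overlap, and the log2 fold change was 0.27 ± 0.07 with an adjusted p of 0.026 by edgeR. Ndufb4, in the membrane arm (gene 288088, chromosome 11, 65960246 to 65966899), had 95.8, 92.0 and 93.5 CPM in sORF8 libraries and 79.7, 82.4 and 79.1 CPM in control libraries, without overlap, with a log2 fold change of 0.22 ± 0.06 and an adjusted p of 0.045 by edgeR. Core subunits of complex I carry the flavin and the iron-sulphur clusters. Among them Ndufs1 had 0.10 ± 0.03, Ndufv1 0.09 ± 0.05 and Ndufv2 0.01 ± 0.06 on the log2 scale, none past the test. The lowest values of the complex were -0.06 ± 0.09 for Ndufa10l1, a like-named copy of Ndufa10, and -0.04 ± 0.06 for the accessory subunit Ndufa12.

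The remaining 3 came 1 each from complexes II, IV and V. Sdha, the flavoprotein that oxidises succinate (gene 157074, chromosome 1, 31545631 to 31570601), had 323, 325 and 314 CPM in sORF8 libraries, against 289, 290.3 and 295 CPM in control libraries. The groups did not overlap, and the log2 fold change was 0.14 ± 0.04 with an adjusted p of 0.037 by edgeR. Cox7b, a small subunit of complex IV (gene 303393, chromosome X, 77065427 to 77071676), had 119, 117 and 120.4 CPM in sORF8 libraries and 97.5, 99.7 and 94.0 CPM in control libraries, with a log2 fold change of 0.29 ± 0.07 and an adjusted p of 0.031 by edgeR. Atp5f1b (gene 171374, chromosome 7, 2504708 to 2511748) had 2242, 2188 and 2182 CPM in sORF8 libraries and 1984, 1993 and 2005 CPM in control libraries. In both genes every sORF8 library lay above every control library. Atp5f1b is the most abundant of the 7 by counts and had a log2 fold change of 0.14 ± 0.04 and an adjusted p of 0.031 by edgeR. Sdha and Atp5f1b were not called by limma on log2 FPKM, which kept the other 5. The alpha subunit Atp5f1a had 0.11 ± 0.03 and the gamma subunit Atp5f1c, the rotor shaft, 0.14 ± 0.05 on the log2 scale, neither past the test. The other subunits of complex II did not pass either: the iron-sulphur subunit Sdhb had 0.11 ± 0.05, Sdhc 0.06 ± 0.06 and Sdhd 0.09 ± 0.05.

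Several other subunits of complex IV did not pass in the same comparison. Cox6a2 had 675, 723 and 768 CPM in sORF8 libraries, against 637, 635 and 621 CPM in control libraries, a log2 fold change of 0.19 ± 0.07 with an adjusted p of 0.18 by edgeR. Its partner Cox6a1 had 0.10 ± 0.06 on the log2 scale. Cox4i1, the main isoform of the regulatory subunit 4, had 0.04 ± 0.06, and Cox5a and Cox5b, which are single-isoform subunits, 0.11 ± 0.07 and 0.04 ± 0.07. Cox7a2 had 0.23 ± 0.10 and Cox8a 0.12 ± 0.06. Atp5s, the lowest member of complex V at 2.69 FPKM, is also called coupling factor B and had 0.10 ± 0.15. The largest log2 fold change of the 81 was that of Cox8b, 0.52 ± 0.16, with 12.2, 14.5 and 13.7 CPM in sORF8 libraries and 10.5, 10.1 and 7.78 CPM in control libraries. The groups did not overlap, and at an adjusted p of 0.084 by edgeR it did not pass.

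**Figure D3:**
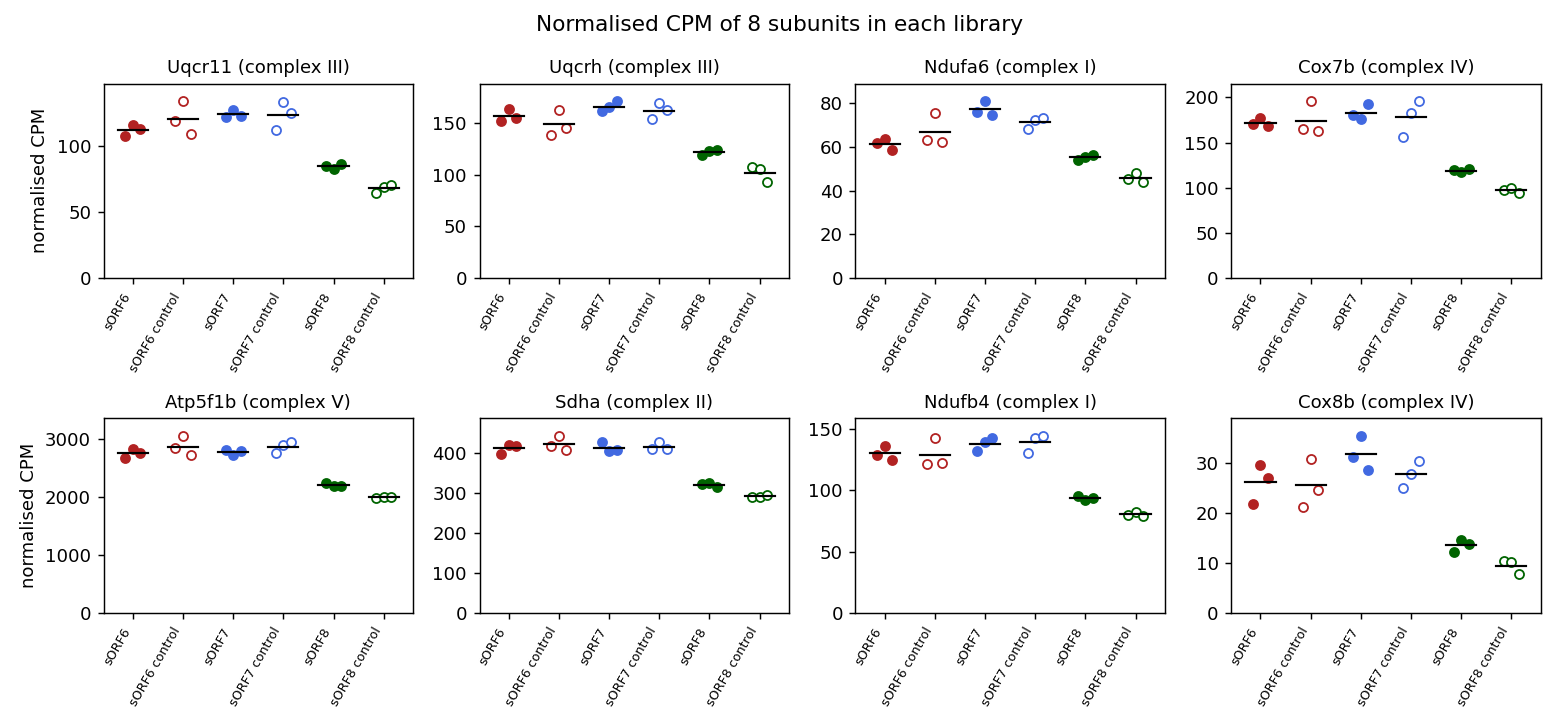
CPM (linear axes from 0) of named subunits in the 6 groups, 1 point per library and a bar at the mean, each sORF group left of its control. In every panel the 3 sORF8 libraries lie above the 3 sORF8 control libraries and below all 12 libraries of the other experiments.

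Promoters are shown for 3 of the 7 called members and for Cox8b, which had the largest log2 fold change. The 3 shown each hold a match to a motif searched below. Of the called members not shown, Cox7b, Atp5f1b and Ndufb4 had 0 matches, and Uqcr11 had no promoter to search. RefSeq (build GRCr8) gave a promoter for 70 of the 81 tested members, and the 250 bases before the start were searched on both strands for 4 motifs, a search that counts letters and not bound factors. The motif of nuclear respiratory factor 1 (GCGCA, any base, then GCGC) was in 10 of 70 members (14.3%), against 3.75% of 33469 promoters. CCGGAAG, bound by ETS factors such as GABP, was in 19 (27.1%), against 7.27%. AAGGTCA, bound by the oestrogen-related receptors, was in 7 (10.0%), against 3.99%, and AAGATGGC, bound by YY1, was in 2 (2.86%), against 1.63%. The median GC content of these windows was 55.8% in members and 51.2% in all promoters. Those promoters were not limited to expressed genes, matched for GC content or, as the members were, reduced to 1 per gene. The 4 sequences below run 5′ to 3′ on the gene's strand and end just before the start; capitals mark a motif match on either strand, and no matches overlap. Uqcrh holds 1 CCGGAAG match on the other strand, where it reads CTTCCGG here, Ndufa6 holds 1 on its own strand, Sdha holds 2 matches to the nuclear respiratory factor 1 motif, and Cox8b holds none of the 4.
Uqcrh (chr5:134790883-134791132, minus strand): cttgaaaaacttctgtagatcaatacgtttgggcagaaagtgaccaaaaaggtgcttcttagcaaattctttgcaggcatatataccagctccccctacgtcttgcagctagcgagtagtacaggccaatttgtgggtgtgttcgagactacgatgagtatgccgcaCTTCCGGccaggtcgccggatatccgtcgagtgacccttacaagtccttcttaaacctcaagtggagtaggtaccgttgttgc
Ndufa6 (chr7:115750318-115750567, minus strand): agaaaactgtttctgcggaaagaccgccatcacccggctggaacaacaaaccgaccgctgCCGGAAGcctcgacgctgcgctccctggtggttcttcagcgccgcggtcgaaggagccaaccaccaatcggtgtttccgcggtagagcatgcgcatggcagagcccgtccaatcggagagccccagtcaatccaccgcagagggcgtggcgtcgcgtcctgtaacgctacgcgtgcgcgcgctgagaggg
Sdha (chr1:30764303-30764552, plus strand): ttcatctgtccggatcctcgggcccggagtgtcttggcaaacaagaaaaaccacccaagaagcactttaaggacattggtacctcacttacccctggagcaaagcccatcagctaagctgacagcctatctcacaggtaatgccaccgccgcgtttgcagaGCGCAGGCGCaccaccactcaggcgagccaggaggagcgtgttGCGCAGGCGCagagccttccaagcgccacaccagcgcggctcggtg
Cox8b (chr1:205408274-205408523, minus strand): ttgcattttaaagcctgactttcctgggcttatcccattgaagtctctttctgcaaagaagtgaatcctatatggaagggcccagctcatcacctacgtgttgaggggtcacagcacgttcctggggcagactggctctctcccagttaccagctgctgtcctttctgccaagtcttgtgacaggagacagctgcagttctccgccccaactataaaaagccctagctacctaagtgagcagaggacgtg

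Other genes of the pathway were counted in the same test, where 2.03% of all genes were called higher and 1.72% lower. Among 14 electron carriers and their biosynthesis genes, 1 rose and 0 fell: Coq8a, needed for ubiquinone synthesis, with a log2 fold change of 0.50 ± 0.06 and an adjusted p of 3.1e-05 by edgeR. Cytochrome c1 (Cyc1) had 0.12 ± 0.05 and somatic cytochrome c (Cycs) 0.15 ± 0.05. Of 15 genes of the tricarboxylic acid cycle and pyruvate dehydrogenase, 3 rose and 0 fell, among them Dlat (0.23 ± 0.04), a subunit of pyruvate dehydrogenase, and Fh (0.16 ± 0.04), fumarase. Of 42 assembly factors, 0 passed the test in either direction, with a median of 0.06. Likewise 0 passed among 12 membrane carriers (median 0.07), 15 regulators and mitochondrial DNA expression genes (median -0.08) and 75 mitochondrial ribosomal proteins (median 0.01). Of 87 cytosolic ribosomal proteins, also short transcripts, 0 rose and 8 fell, with a median of -0.12. Cardiomyocyte markers moved with the chain: 5 of 10 rose and 0 fell, with a median of 0.24, and their summed level was 25511 to 25595 FPKM in sORF8 libraries, against 21635 to 21875 FPKM in control libraries. Myh6, the alpha myosin heavy chain, had 0.80 ± 0.07, and Actc1, cardiac actin, 0.19 ± 0.05. Of 8 fibroblast markers 0 were called, and their summed level was 1544 to 1618 FPKM in sORF8 libraries and 1543 to 1577 FPKM in control libraries. In bulk RNA, fewer cardiomyocytes and less of this RNA per cardiomyocyte cannot be told apart, and the part of cell makeup in the subunits' difference was not tested.

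In the sORF6 experiment, edgeR called 0 of 81 members higher and 0 lower, where 0.968% of all genes were called higher and 2.88% lower. At an unadjusted p under 0.05 by edgeR, 0 members were higher and 4 lower, where 978 of 14870 genes were higher and 1286 lower. DESeq2 and limma also called 0 members. The median log2 fold change was -0.05, beside 0.00 over all genes, and 13 of 81 members were above 0. Without both libraries that stood apart the median was 0.02 and 1 member was called higher, where 168 of all genes tested were. Atp5f1b had 2670.1, 2832 and 2758 CPM in sORF6 libraries, against 2846, 3054 and 2719 CPM in sORF6 control libraries, and control replicate 2 was the highest. The groups overlapped, and its log2 fold change was -0.06 ± 0.04. Uqcr11 had 108, 116 and 113 CPM in sORF6 libraries and 119, 134 and 109.8 CPM in control libraries, with a log2 fold change of -0.11 ± 0.06, again with overlap. In the authors' deposited table, 2 of 82 members were higher and 41 lower at a q-value under 0.05, among 8.89% higher and 13.0% lower of all genes. Cardiomyocyte markers had 3 of 10 higher and 1 lower, with a median of 0.12, opposite in sign to the members' -0.05.

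In the sORF7 experiment, edgeR likewise called 0 of 81 higher and 0 lower, where 4.12% of all genes were called higher and 3.66% lower. At an unadjusted p under 0.05 by edgeR, 2 members were higher and 2 lower, where 1489 of 14870 genes were higher and 1490 lower. Limma called 0 members, and DESeq2 called 1 higher. The median log2 fold change was 0.02 and 47 of 81 were above 0. Without both libraries that stood apart the median was -0.03 and 5 members were called lower, where 529 of all genes tested were. Uqcrq, a subunit of complex III near the ubiquinone site, had the highest value among the 76 members with at least 500 counts: 199, 216 and 187 CPM in sORF7 libraries, against 159.8, 163 and 188 CPM in sORF7 control libraries. The groups overlapped, and the log2 fold change was 0.24 ± 0.08 with an adjusted p of 0.091 by edgeR. In the authors' deposited table, 32 of 82 members were higher and 12 lower, among 17.0% higher and 10.4% lower of all genes. Cardiomyocyte markers had 0 of 10 higher and 3 lower, with a median of -0.15, opposite in sign to the members' 0.02.

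The responses to the 3 viruses were set against each other in the same model. Comparing sORF6 with sORF7, the response of 1 member differed, where 11.2% of all genes did. It was Uqcrq, with log2 fold changes of -0.14 ± 0.08 in the sORF6 experiment and 0.24 ± 0.08 in the sORF7 experiment. Between sORF6 and sORF8, 3 members differed, where 3.69% of all genes did: Uqcr11, Ndufa6 and Atp5f1b, all higher in response to sORF8. Between sORF7 and sORF8, 5 differed, where 7.72% of all genes did: Uqcr11, Atp5f1b, Atp5f1a, Cox7c and Ndufs1. Cox7c, a small complex IV subunit, had -0.18 ± 0.06 in the sORF7 experiment and 0.15 ± 0.07 in the sORF8 experiment, and Ndufs1 -0.09 ± 0.03 in the sORF7 experiment and 0.10 ± 0.03 in the sORF8 experiment. The differences of Uqcr11 between sORF6 and sORF8 and of Ndufs1 between sORF7 and sORF8 passed at every setting tried. Between sORF7 and sORF8 the call was lost for Atp5f1a at 20 settings, Uqcr11 at 18, Cox7c at 12 and Atp5f1b at 10. That of Uqcrq between sORF6 and sORF7 was lost at 12. Between sORF6 and sORF8, Atp5f1b lost its call at 8 and Ndufa6 at 2. For sORF6 against sORF7 the count of members that differed was 0 without sORF6 replicate 1 or 3, sORF6 control replicate 1, sORF7 replicate 2, sORF7 control replicate 1 or sORF8 replicate 1 or 2. It was 2 to 6 without sORF6 replicate 2 or sORF6 control replicate 2 or 3. For sORF6 against sORF8 it was 1 without sORF6 replicate 3 or sORF8 control replicate 3 and 11 without sORF6 control replicate 3. For sORF7 against sORF8 it was 1 to 3 without any 1 library of sORF6, sORF7, sORF8 or the sORF8 control or without sORF7 control replicate 2 or 3, and 10 without sORF6 control replicate 2.

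Of the comparisons made here, that of the control groups held the most calls among members. It was added after a joint test of the 3 control groups had been seen. In sORF8 control cells, 77 of 81 members were lower than in the control cells of the other experiments and 0 higher (edgeR's quasi-likelihood test with Benjamini-Hochberg adjustment), where 21.3% of all genes were called lower and 21.5% higher. The median log2 fold change was -0.44, a 0.735-fold level, beside 0.00 over all genes. In 74 members, 91.4%, the 3 sORF8 control libraries all lay below the 6 others, where 18.3% of all genes did. The exceptions were Ndufa10l1, Ndufa12, Ndufa3, Cox4i2, Cox6b2, Cox7a2l and Atp5if1. The median was -0.40 for complex I (36 of 36 tested members called lower), -0.41 for complex II (4 of 4) and -0.49 for complex III (8 of 8). It was -0.44 for complex IV (14 of 17) and -0.49 for complex V (15 of 16). Without both libraries that stood apart, 76 members were lower, where 3338 of all genes tested were. Between the sORF7 control and sORF6 control groups 0 members were called by edgeR, where 0.00672% of all genes were. At an unadjusted p under 0.05 by edgeR, 5 of 81 members were higher and 0 lower, where 666 of 14870 genes were higher and 581 lower. The control virus and the experiment it belonged to cannot be told apart, since the labels give each control to 1 experiment. Depth differed the same way, and its part was not tested.

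Single members show the size of the contrast. Cox8b had 10.5, 10.1 and 7.78 CPM in sORF8 control libraries, against 25.0, 27.8 and 30.4 CPM in sORF7 control libraries and 21.2, 30.8 and 24.6 CPM in sORF6 control libraries. No library of the first group reached the others, and the log2 fold change was -1.49 ± 0.13, with an adjusted p of 4.5e-08 by edgeR. Cox7b had 97.5, 99.7 and 94.0 CPM in sORF8 control libraries, 156, 183 and 196 CPM in sORF7 control libraries and 164, 196 and 162 CPM in sORF6 control libraries, a log2 fold change of -0.86 ± 0.06. Uqcr11 had -0.84 ± 0.06 and Ndufb4 -0.74 ± 0.05 on the same scale. In the ATP synthase the largest were Atp5mc1, 1 of 3 genes for the proton-carrying c-ring subunit, at -0.76 ± 0.06, and the epsilon subunit Atp5f1e at -0.75 ± 0.07. The other c-ring genes Atp5mc2 and Atp5mc3 had -0.47 ± 0.06 and -0.50 ± 0.05. Atp5f1b had 1984, 1993 and 2005 CPM in sORF8 control libraries, 2761, 2907 and 2943 CPM in sORF7 control libraries and 2846, 3054 and 2719 CPM in sORF6 control libraries, with a log2 fold change of -0.53 ± 0.03 and no overlap. Cox6a2 had 637, 635 and 621 CPM in sORF8 control libraries, 785, 937 and 901 CPM in sORF7 control libraries and 813, 958 and 755 CPM in sORF6 control libraries, a log2 fold change of -0.44 ± 0.07 and no overlap. On the log2 scale, other complex IV subunits had -0.35 ± 0.05 (Cox4i1), -0.28 ± 0.06 (Cox5a) and -0.37 ± 0.06 (Cox5b). In complex II, Sdhb was at -0.32 ± 0.05, Sdhc at -0.38 ± 0.05 and Sdhd at -0.43 ± 0.04. Sdha had -0.52 ± 0.03, Uqcrfs1 -0.36 ± 0.04 and Ndufs1 -0.33 ± 0.03.

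The 4 members that did not pass in this contrast were 2 scarce isoforms of complex IV, a supercomplex factor and an inhibitor. Cox4i2 and Cox6b2, an isoform best known from testis, were both under 3 FPKM and had log2 fold changes of 0.19 ± 0.25 and -0.13 ± 0.31. Cox7a2l, which helps join complexes III and IV into supercomplexes, had -0.08 ± 0.04, and Atp5if1, the inhibitor of ATP hydrolysis by complex V, -0.12 ± 0.07. Atp5if1 had 136, 128 and 126 CPM in sORF8 control libraries, against 134, 156 and 153 CPM in sORF7 control libraries and 124, 157 and 122 CPM in sORF6 control libraries, so the groups overlapped. Among the called members, Cox7a1 had 13.0 counts on average, a log2 fold change of -1.13 ± 0.43 and an adjusted p of 0.039 by edgeR, and its call was lost at 7 of the settings tried. Ndufa10l1 had -0.22 ± 0.08 with an adjusted p of 0.037 by edgeR, and its call was lost at 9. In a joint test among the 3 control groups, 75 of 81 members differed, where 38.4% of all genes did.

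Lists of mitochondrial and ribosomal genes were counted in the same contrast, where 21.3% of all genes were called lower and 21.5% higher. All 15 genes tested of the tricarboxylic acid cycle and pyruvate dehydrogenase were lower (median -0.32), among them Mdh2 at -0.47 ± 0.04. Among 14 electron carrier genes 10 were lower and 0 higher (median -0.37), with Cycs at -0.48 ± 0.05 and Coq8a at -0.95 ± 0.05. Of 12 membrane carriers 10 were lower and 1 higher: the adenine nucleotide translocase of muscle, Slc25a4, had -0.43 ± 0.05, and its paralogue Slc25a5 0.24 ± 0.04. Assembly factors, proteins that build the complexes without staying in them, were lower in 17 of 42 cases and higher in 0 (median -0.16). Genes for expression of mitochondrial DNA and for regulators had 7 of 15 higher and 3 lower. Tfb2m, a mitochondrial transcription factor, had 0.55 ± 0.08 and the helicase Twnk 0.35 ± 0.05, while the coactivators Ppargc1a and Ppargc1b had -0.33 ± 0.05 and -0.52 ± 0.14. Mitochondrial ribosomal proteins had 4 of 75 higher and 21 lower (median -0.04), and cytosolic ribosomal proteins 71 of 87 higher and 2 lower (median 0.27).

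Cardiomyocyte markers were lower in the same contrast in 10 of 10 cases, with a median of -0.50, close to the chain's -0.44. Their summed level was 21635 to 21875 FPKM in sORF8 control libraries, against 28137 to 30673 FPKM in sORF7 control and 28362 to 32405 FPKM in sORF6 control libraries. Myh6 had -1.26 ± 0.07 and Tnnt2 -0.37 ± 0.04. Of the fibroblast markers 0 of 8 were higher and 3 lower, with 1543 to 1577 FPKM in sORF8 control libraries, against 1543 to 1697 FPKM in sORF7 control and 1539 to 1676 FPKM in sORF6 control libraries. Of the other lists, smooth muscle and pericyte markers had 1 of 6 higher and 3 lower, endothelial markers 1 of 6 higher and 0 lower, and leukocyte markers (7) and Schwann cell markers (2 tested) had 0 called. The part of cell makeup in the contrast was not tested.

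**Figure D4:**
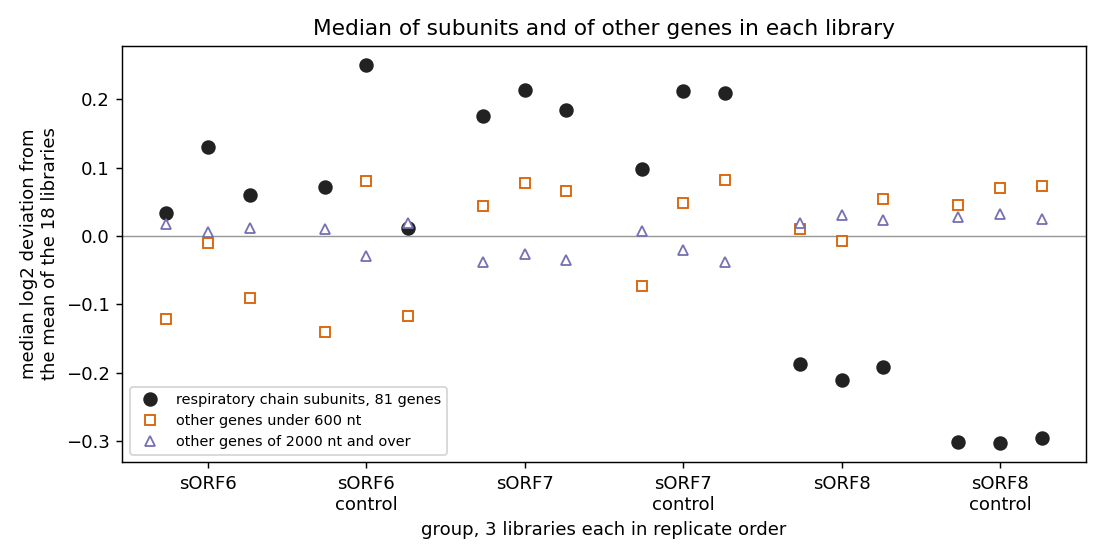
Median log2 level over 81 respiratory chain subunits relative to each gene's mean over the 18 libraries, 1 point per library, beside the same for other genes under 600 nt and of 2000 nt and over, with each sORF group left of its control. The sORF8 control libraries lie near -0.30 for the subunits and above 0 for the other short genes.

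The members are short transcripts. Their median effective length was 598 nt, against 2554 nt over all genes tested, and 72.8% of members but 8.74% of all genes were under 1000 nt. The libraries that stood apart were compared over other short genes too. Over 144 other genes under 600 nt of a similar minimum level, the median log2 level was -0.14, 0.08 and -0.12 in the sORF6 control libraries and -0.07, 0.05 and 0.08 in the sORF7 control libraries, with replicate 2 again the highest of its group and replicate 1 again the lowest. In the sORF8 experiment the medians of members and of other short genes had opposite signs. Under 600 nt, the median log2 fold change of sORF8 over its control was 0.14 over 41 members and -0.04 over the 144 others. For sORF8 control over the other controls it was -0.51 over members and 0.09 over others. The others were all non-members of that length and level, and cytosolic ribosomal proteins were not taken out. Those proteins' genes had medians of -0.12 and 0.27 in the same comparisons. For sORF7 over its control both medians of this bin were above 0, at 0.06 over members and 0.04 over others.

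Across the 81 members, which share the same libraries, Spearman's rho between effective length and log2 fold change was 0.00 for sORF6, -0.57 for sORF7, -0.43 for sORF8 and 0.35 for sORF8 control over the other controls. Over the 7112 other genes of that minimum level it was 0.32 for sORF6, -0.17 for sORF7, 0.14 for sORF8 and 0.01 for sORF8 control over the other controls. Genes are not independent replicates. The members over 2000 nt, Sdha and Ndufs1, gave a median of 0.12 for sORF8 and -0.43 for sORF8 control over the other controls. With an offset for length in the model, 22 members rose in sORF8 cells and 0 fell, and 76 were lower in sORF8 control cells than in the other controls. Of all genes tested, 453 were called higher and 472 lower with that offset in sORF8 cells, and 3604 higher and 3143 lower in sORF8 control cells against the other controls.

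**Figure D5:**
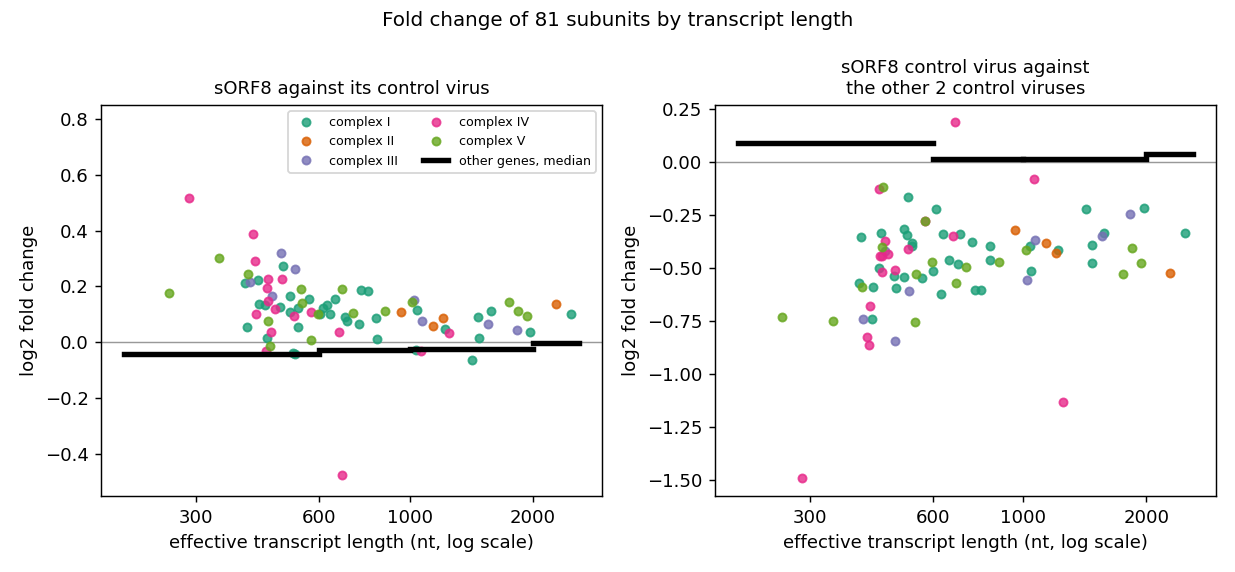
Log2 fold change of each of 81 subunits against effective length (nt, log axis), coloured by complex, for sORF8 over its control (left) and for sORF8 control over the other controls (right), with the medians of other genes by length bin as lines. The points lie mostly above 0 on the left and below 0 on the right, while the lines run between -0.04 and 0.09.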

How the data were processed

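Total RNA was sequenced on a BGI platform, per the labels' protocols. The authors deposited for each library an estimated count and an FPKM value per gene, and for each experiment a log2 fold change and a q-value, whose columns carry degseq in their headings, per the file headers. The submitters' processing notes name HISAT2 2.0.4, RSEM 1.2.12, DESeq2 1.4.5 and the build Rnor_6.0 without roles; no source used here says if the counts respect strand. Here the estimated counts were rounded, filtered with filterByExpr (14870 of 19880 genes kept), scaled by TMM and fitted in edgeR 4.0.16 (R 4.3.3) by a quasi-likelihood model of 6 groups over 18 libraries (12 residual degrees of freedom, common biological coefficient of variation 6.90%). Adjusted p-values cover all 14870 genes, with a threshold of 0.05. CPM are TMM-normalised, errors of fold changes are SE, and spreads are SD over 3 libraries. Alternatives used limma 3.58.1 on log2(FPKM + 1) and log2(FPKM + 0.1), DESeq2 1.42.0, a length offset, other scaling and filtering, and the leaving out of libraries. The script was tested on simulated data.

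The members and gene lists were chosen with earlier results of these data known. Named members were the called ones with the smallest p, the paired isoforms, the core subunits and the highest and lowest of each complex. Ndufa10l1, Ndufa12, Ndufa3, Ndufv2, Cox6b2, Cox7a2l, Atp5f1c, Atp5f1e, Atp5if1 and Atp5mc1 to Atp5mc3, and the genes named from the lists, were picked after their values were seen. Some genes are counted but not reported here by name. Effective length was taken from the ratio of counts to FPKM. Of the members' gene IDs, 83 were found in RefSeq, 81 of them under the same symbol. The median SE of a log2 fold change over the members with at least 500 counts was 0.0663 for sORF8.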

Additional observations from a re-analysis of the deposited data

Results flagged for a closer look

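A total of 9 differences between the responses to the viruses passed the test of the difference itself. The test was a contrast of 2 log2 fold changes in edgeR's quasi-likelihood model, with Benjamini-Hochberg adjustment over all genes. Between sORF6 and sORF7, 1.23% of members differed, beside 11.2% of all genes. For sORF6 with sORF8 the shares were 3.70% and 3.69%, and for sORF7 with sORF8 they were 6.17% and 7.72%. Members' shares were thus near or below those of all genes. The response of Uqcrq to sORF6 minus that to sORF7 was -0.38 ± 0.12 on the log2 scale (adjusted p 0.041). For sORF6 minus sORF8 the difference was -0.42 ± 0.09 in Uqcr11 (adjusted p 0.012), -0.40 ± 0.09 in Ndufa6 (0.017) and -0.21 ± 0.05 in Atp5f1b (0.029). For sORF7 minus sORF8 it was -0.19 ± 0.04 in Ndufs1 (adjusted p 0.0080), -0.19 ± 0.05 in Atp5f1b (0.028), -0.33 ± 0.09 in Cox7c (0.036), -0.15 ± 0.04 in Atp5f1a (0.049) and -0.31 ± 0.09 in Uqcr11 (0.048). Only the difference of Uqcr11 for sORF6 minus sORF8 and that of Ndufs1 kept the call at every setting tried.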

How the results depend on the processing

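Of 29 other settings, that of members with no like-named copy gave only counts and medians. At the rest, named members kept their side of the threshold in 3656 values, which include values never called. They lost the call in 134 and gained it in 50. Losses were most frequent for the differences of Atp5f1a (20) and Uqcr11 (18) between sORF7 and sORF8. Of the sORF8 calls, that of Ndufb4 was lost at 11 settings, that of Sdha at 10 and that of Uqcr11 at 1. Values called in either fit changed direction in 0 cases. Changes of direction among uncalled values were not counted. The 77 members lower in sORF8 control cells and the 75 differing among controls stayed within 1.5 times at each setting that could be fitted. With both libraries that stood apart left out, a setting chosen after seeing the data, 1 member was higher and 0 lower in sORF6, 5 were lower in sORF7 (members' median -0.032), 22 were higher in sORF8, and 4 and 24 responses differed between sORF6 and sORF7 and between sORF7 and sORF8. With the length offset, 1 member was higher and 2 lower in sORF7, 22 were higher in sORF8, and 6, 11 and 19 responses differed (sORF6 with sORF7, sORF6 with sORF8, sORF7 with sORF8). DESeq2 called 1 higher in sORF7, 15 in sORF8 and 3 and 8 differences of sORF6 with sORF7 and with sORF8. A fit of only 6 libraries called 24 higher in sORF8. DESeq2's size factors gave 3 differences of sORF7 with sORF8. Limma, with either pseudocount, gave 4 differences of sORF6 with sORF7, 1 of sORF7 with sORF8, and a sORF8 median of 0.10. With replicate number as a block, 12 members were higher in sORF8, and 2 and 8 responses differed (sORF6 with sORF7, sORF7 with sORF8). Block and length offset together gave 1 member higher in sORF6, 4 lower in sORF7, 21 higher in sORF8 and 6, 9 and 20 differences; the block lies within experiments, so it gives no comparison of controls. Whether same-numbered libraries belong together was not settled. Of 9 same-numbered pairs 3 correlated above 0.1 (r -0.11 to 0.25), and differently numbered pairs had r of -0.24 to 0.21. Leaving out 1 library at a time gave 0 to 2 lower in sORF6, 0 to 1 higher and 0 to 2 lower in sORF7, 1 to 18 higher in sORF8 (median 0.10 to 0.13), and 0 to 6, 1 to 11 and 1 to 10 differences. The cause of these shifts was not tested. With 3 libraries a group, log2 fold changes near the sORF8 median did not pass for most members, and the scarce Cox7a1, Cox4i2 and Cox6b2 rest on few counts.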
